A study of Xenopus laevis with 6 samples.

Results

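Ubiquitin conjugating enzymes, ubiquitin ligases with their cullin and F-box subunits, and ubiquitin proteases were examined in dorsal tissue of Xenopus laevis gastrulae after depletion of apcdd1. Members were the probe sets whose single platform gene symbol begins with a family name of these enzymes (ube2, ube3, herc, rnf, marchf, trim, cul, fbx, usp or otud), with a pair of genes left out by the selection rule. They came to 303 of the 32634 probe sets on the array and carried 207 gene symbols, and 302 of them were found by gene number in the RefSeq gene table of Xenopus laevis. The gene marchf8 was set against the rest because its increase was already known, so its place among the members is a description and was not tested.

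All embryos were injected at the 4-cell stage into each dorsal blastomere with 10 ng of a morpholino oligonucleotide, a synthetic antisense molecule that keeps a chosen RNA from being translated or spliced. The depleted group received the anti apcdd1 MO and the control group the control MO, and both were kept at 16 degrees C until early gastrulation (stage 10.5). Each array held RNA of 1 batch of 10 embryos, cut to their dorsal side, with 3 arrays in each group and 6 in all. A ventral dye mark was given to depleted embryos alone, some of which were late to form the dorsal lip. The treatment text of the control samples names the Apcdd1 morpholino, and the groups here follow the titles and the genotype labels. The labels do not say whether the batches came from separate clutches, and p-values cover only how much these batches varied.

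Ubiquitin is a small protein that is joined to other proteins in a relay. An E1 enzyme activates it, an E2 conjugating enzyme carries it, and an E3 ligase chooses the target, either passing ubiquitin through its own cysteine (the HECT type) or holding the E2 beside the target (the RING types, among them the RNF, TRIM and mostly membrane-bound RING-CH or MARCH proteins). Cullins are scaffolds on which a RING protein and a target-binding subunit, often an F-box protein, form a ligase, and proteases of the USP and OTU families take ubiquitin off again. In the early embryo these enzymes are best known for the destruction of cyclins and for setting the levels of signalling proteins of the Wnt and BMP pathways.

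Signals are the deposited linear values, in arbitrary units. The dimmest 40% of probe sets by mean log2 signal over all 6 arrays, those under a signal of 22.3, were not tested, which took away 52 members and left 251, of 180 symbols. Median signals per array ran from 44.4 to 45.7. The ratio of 3' to 5' gapdh signal, which rises with RNA breakdown, averaged 1.77 ± 0.03 over control and 1.87 ± 0.07 over depleted arrays (SD, n = 3), without overlap. The dorsal organizer genes chosen as markers of the labelled tissue were detected, with chrd.1.S between 2126 and 2415 in control arrays. Of their 21 tested probe sets 5 were lower and 0 higher in limma (23.8%, against 6.62% of all tested probe sets). At an unadjusted p under 0.05 in limma stood 12 (57.1%, against 19.0% of all tested). All 21 log2 differences were below 0, with a median of -0.20. Their summed signal was 22312 to 25554 in control and 19418 to 20688 in depleted arrays. Summed signals of ventral markers (4133 to 4524 against 4880 to 5092), of ectoderm markers (5368 to 6127 against 6989 to 7145) and of germ plasm markers (3240 to 3507 against 2126 to 3117) also moved with the group, while those of endoderm overlapped (8715 to 9874 against 8733 to 10730). Among tested probe sets, 3 ventral markers were higher and 1 lower of 14, 4 ectoderm markers were higher and 1 lower of 14, 3 germ plasm markers were lower of 7, and 2 endoderm markers were lower of 11. In the same order, the shares called were 28.6%, 35.7%, 42.9% and 18.2%, against 6.62% of all tested probe sets. Unlike their sum, most of the 14 tested ventral probe sets leaned down, with 5 log2 differences above 0, 9 below and a median of -0.07. Log2 differences of the tested ectoderm markers ran from -0.69 to 3.73, and 14 of their 28 probe sets were too dim to be tested. No marker was at a signal of 0. The part of RNA integrity, of tissue makeup or of late development in the results below was not tested. The dye mark ran with the group, so it cannot be told apart from the depletion. In such pooled tissue fewer cells of a type and less RNA per cell cannot be told apart.

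With all 6 arrays, the share of these genes that passed the test was near that of the array as a whole. Of the 251 tested members, 11 rose and 6 fell, together 17 or 6.77%, against 6.62% of all 19484 tested probe sets, at an adjusted p under 0.05 in limma with Benjamini-Hochberg adjustment over all of them. By direction, 4.38% of members rose, against 3.00% of all tested, and 2.39% fell, against 3.61%. These shares of all tested probe sets belong beside each count of calls per class or list below. The 17 probe sets stand for 15 symbols. The median log2 difference, depleted minus control, was 0.02 over the members and 0.00 over all tested probe sets, and 80.9% of members differed by less than 0.2 on the log2 scale, against 77.4% of all. The groups did not overlap in 63 members (25.1%), against 24.7% of all tested probe sets. In 41 members every depleted array lay above every control array (16.3%, against 11.9% of all tested), and in 22 every one lay below (8.76%, against 12.8%). At an unadjusted p under 0.05 stood 40 members (15.9%), against 19.0% of all tested probe sets, the share to set beside each such count below. The count of calls rests on single arrays. Without control 2 it was 3 (1.20% against 3.43%), without depleted 2 it was 7 (2.79% against 4.59%), and without depleted 3 it was 6 (2.39% against 3.79%). It was 13 without control 3 (5.18% against 7.34%) and 12 without depleted 1 (4.78% against 4.83%). Without control 1 it was 16, and the members' share was above that of all tested probe sets (6.37% against 5.71%). With each probe set's own variance alone, of the 17 only those of marchf8.L passed.

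**Figure D1:**
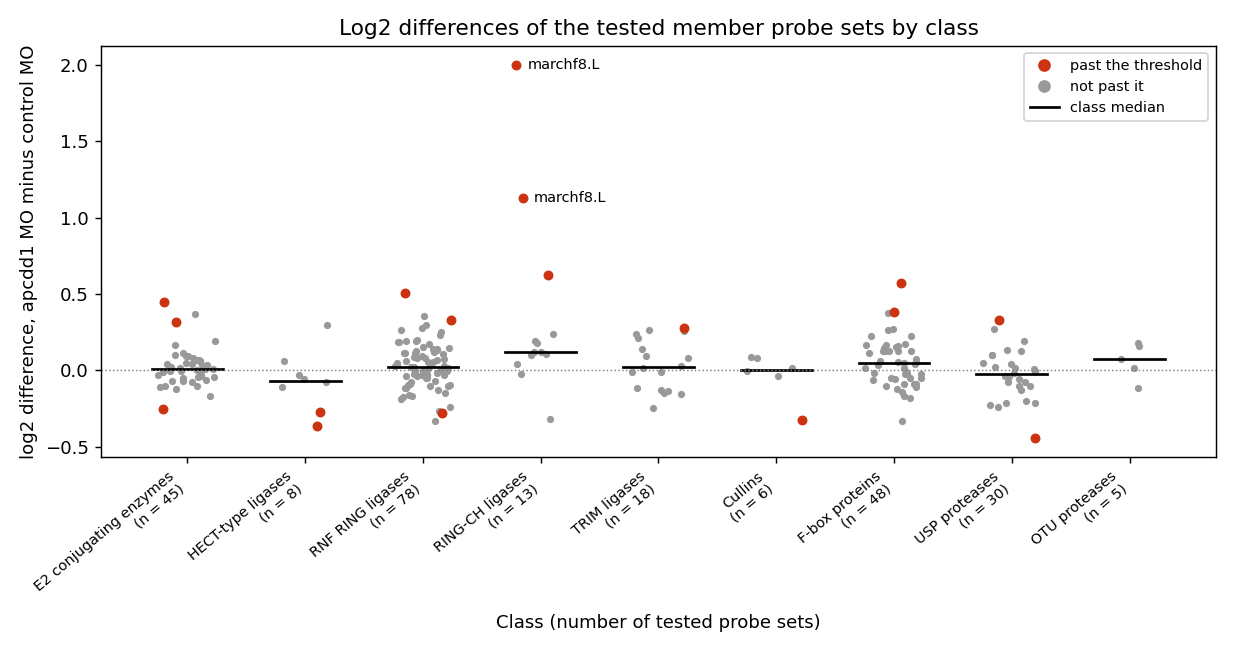
Log2 difference of signal, apcdd1 MO minus control MO (vertical axis), of the 251 tested member probe sets in 9 classes (horizontal axis), where each point is a probe set, red points passed the threshold and black lines are class medians. Both marchf8.L probe sets, at 2.00 and 1.13, lie above every other member, of which the highest is 0.62.

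The RING-CH ligases held the strongest change. marchf8 encodes a ligase of endosomes and the cell surface that in mammals marks membrane proteins such as the transferrin receptor for uptake and breakdown. On probe set Xl2.50492.1.A1_at the signal of marchf8.L was 53.3, 60.5 and 65.8 in the control arrays and 275, 228 and 217 in the depleted arrays. Every depleted array stood well above every control array in the plot of RING-CH signals. The means were 59.8 ± 6.27 and 240 ± 30.7 (SD, n = 3), a log2 difference of 2.00 ± 0.11 (SE) or 4.01-fold, with adjusted p = 1.6e-05 in limma.

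On its other probe set, Xl2.8458.1.S1_at, marchf8.L read 214, 208 and 209 in control and 487, 497 and 405 in depleted arrays. The control arrays differed little from each other and the groups were far apart. Here the log2 difference was 1.13 ± 0.09 (SE), 2.19-fold, with adjusted p = 7.8e-05 in limma. Both probe sets passed in every alternative fit and without any single array, with log2 differences between 1.90 and 2.07 and between 1.08 and 1.22 when 1 array was left out. With 64 added to each signal the first was 1.29. By size these were the first and second of the 251 members, and the 24th and 98th of all 19484 tested probe sets, while the member next in size stood at 491. Without marchf8, 9 of 249 members rose and 6 fell, or 6.02%, and their log2 differences ran from -0.44 to 0.62.

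**Figure D2:**
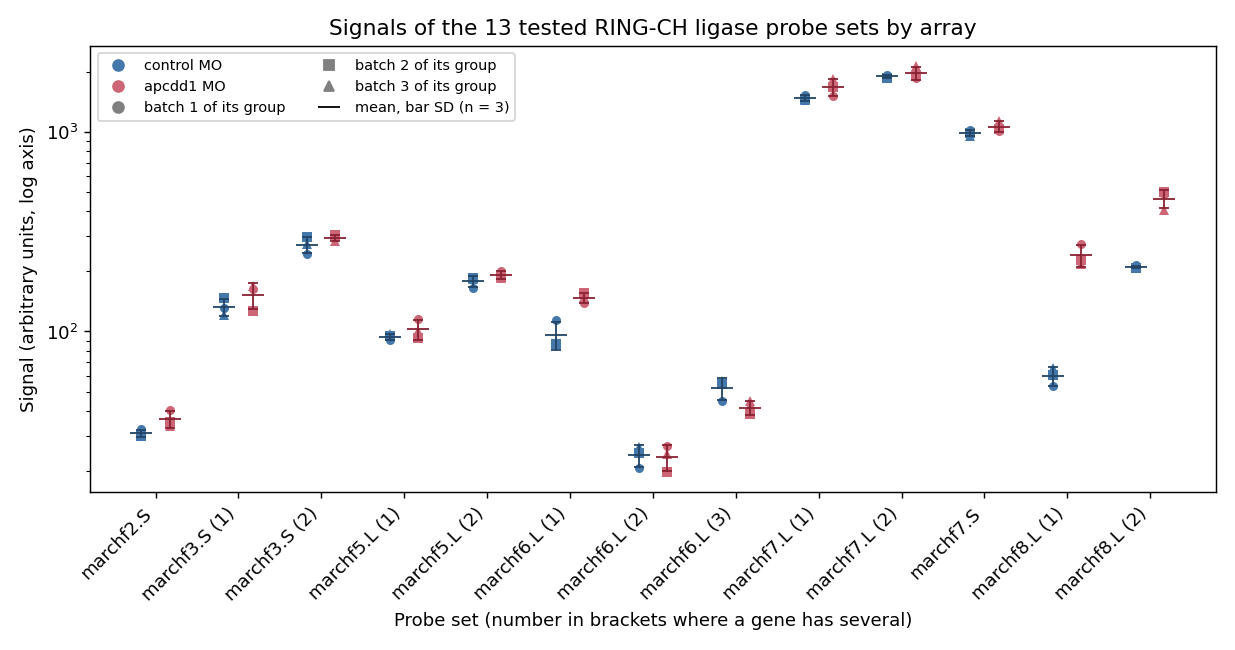
Signal in arbitrary units on a log axis (vertical) of the 13 tested RING-CH probe sets (horizontal), where points are arrays, marked by batch number, and bars are mean ± SD of 3 arrays of control MO (blue) or apcdd1 MO (red). For marchf8.L the groups are apart on both probe sets, 53.3 to 65.8 against 217 to 275 and 208 to 214 against 405 to 497, while for marchf6.L one probe set is higher and the others are not.

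Of 13 tested RING-CH probe sets 3 rose and 0 fell (23.1%, against 6.62% of all tested), both marchf8.L probe sets among them. At an unadjusted p under 0.05 in limma stood 5 (38.5%, against 19.0% of all tested). These were both marchf8.L probe sets, marchf6.L with a rise of 0.62 and a fall of -0.32, and marchf7.L with 0.18. Both shares hold marchf8.L, which was set apart because its increase was known, so they are no result about the class. The 11 RING-CH probe sets other than those of marchf8.L held 1 further call. marchf6.L, whose product is a ligase of the endoplasmic reticulum membrane that disposes of misfolded and short-lived proteins, read 114, 86.7 and 88.5 in control and 139, 155 and 149 in depleted arrays on probe set Xl2.14661.1.A1_at. Control 1 lay nearest to the depleted arrays, and the groups did not overlap. The log2 difference was 0.62 ± 0.11 (SE; limma adjusted p = 0.0099), and the call was lost without control 2 or depleted 3 (adjusted p = 0.057 and 0.052). With 64 added to each signal the log2 difference was 0.40 and passed. The other probe sets of marchf6.L did not follow it, with -0.32 ± 0.12 and -0.02 ± 0.14 (limma adjusted p = 0.17 and 0.96), so the gene has no single direction here. Probe sets that did not pass included marchf7.L (0.18 ± 0.07 and 0.04 ± 0.06), marchf7.S (0.10 ± 0.06), marchf2.S (0.24 ± 0.11), marchf3.S (0.19 ± 0.12 and 0.12 ± 0.08) and marchf5.L, a ligase gene of the mitochondrial outer membrane (0.10 ± 0.08 and 0.12 ± 0.10; log2 difference ± SE). marchf9.S was too dim to be tested.

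Among the E2 conjugating enzymes, homeologs of ube2c went in opposite directions. UBE2C is the E2 that starts ubiquitin chains for the anaphase promoting complex, the ligase that ends mitosis by destroying cyclin B, and the endings .L and .S mark the gene copies of the long and the short subgenome in this allotetraploid frog. ube2c.L read 736, 752 and 809 in control and 965, 972 and 925 in depleted arrays. All depleted arrays were above all controls, with a log2 difference of 0.32 ± 0.06 (SE; limma adjusted p = 0.013). ube2c.S read 885, 876 and 964 in control and 741, 750 and 789 in depleted arrays. Here all depleted arrays were below all controls, with a log2 difference of -0.26 ± 0.06 (limma adjusted p = 0.040). The difference between the copies was not tested. The call of ube2c.L ended without control 2 and without depleted 2 (adjusted p = 0.072 and 0.057), and that of ube2c.S ended without any one array (adjusted p from 0.054 to 0.12). A second probe set of ube2c.L, with mean signals of 22.0 in control and 25.2 in depleted arrays, was tested and did not pass (0.19 ± 0.12).

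ube2f.S encodes the E2 that joins NEDD8, a ubiquitin-like protein, to cullin 5. It read 80.6, 71.3 and 66.7 in control and 97.3, 98.6 and 102 in depleted arrays, without overlap, a log2 difference of 0.45 ± 0.09 (SE; limma adjusted p = 0.020). Its other probe sets had 0.37 ± 0.12 and 0.32 ± 0.19 without passing. Both were dim, with mean signals of 21.4 and 28.9 in control and 27.5 and 36.9 in depleted arrays. The first was under the cut of 22.3 in control and was tested only through its depleted arrays, so its direction is no support. Both carry the number Xl2.56948 and may not be separate measures. Leaving out control 2 or any depleted array took the call of the brightest probe set away (adjusted p = 0.097, 0.052, 0.066 and 0.089). With 64 added to each signal its log2 difference was 0.25 and passed. In all, 2 of 45 tested E2 probe sets rose and 1 fell (6.67%, against 6.62% of all tested). The class median was 0.01, and 40 of the 45 differed by less than 0.2. ube2s, the E2 that lengthens the chains ube2c starts, did not pass on either copy (0.00 ± 0.07 for ube2s.L, -0.05 ± 0.06 and -0.11 ± 0.06 for ube2s.S), nor did ube2v1.L, a variant E2 without a catalytic cysteine (0.11 ± 0.06).

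Of 8 tested probe sets of HECT-type ligases 2 fell and 0 rose (25%, against 6.62% of all tested), and 3 of the 8 had an unadjusted p under 0.05 in limma. Both calls were of ube3c.S, a ligase gene whose product is known to act at the proteasome. Probe set Xl2.8096.1.S1_at read 248, 270 and 272 in control and 221, 192 and 200 in depleted arrays. Depleted 1 lay nearest to the controls, and the log2 difference was -0.37 ± 0.08 (SE; limma adjusted p = 0.024). Probe set Xl2.10226.1.S1_at read 385, 434 and 427 against 342, 348 and 342, with -0.27 ± 0.07 and an adjusted p of 0.04998 in limma, just under the threshold. The first call ended without control 2 and without depleted 2 or 3 (adjusted p = 0.12, 0.093 and 0.10), and the second without control 2 or 3 and without any depleted array (0.23, 0.095, 0.12, 0.12 and 0.17). ube3d.S went the other way without passing, from 82.0 ± 1.53 to 101 ± 2.54 (SD, n = 3; limma adjusted p = 0.053). herc4.S (-0.11 ± 0.08) and herc4.L (-0.06 ± 0.07) did not pass.

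RNF ligases formed the largest class, and 2 of 78 tested probe sets rose and 1 fell (3.85%, against 6.62% of all tested), with a class median of 0.02. rnf146.S encodes a ligase that recognises poly(ADP-ribose) and is known for the breakdown of Axin, a brake on Wnt signalling. It read 136, 122 and 94.0 in control and 159, 164 and 173 in depleted arrays. The control arrays spread widely, but none reached a depleted one, and the log2 difference was 0.51 ± 0.13 (SE; limma adjusted p = 0.045). Leaving out control 2 or any depleted array took this call away too (adjusted p = 0.11, 0.11, 0.12 and 0.17).

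rnf13.L, a ligase gene of endosomes and lysosomes, read 281, 258 and 242 in control and 315, 345 and 322 in depleted arrays on one probe set. The groups were apart there (0.33 ± 0.08 SE; limma adjusted p = 0.036), while its other probe set gave 0.00 ± 0.09. rnf19b.L, of the RBR ligases that combine RING and HECT chemistry, read 498, 504 and 522 in control and 456, 396 and 404 in depleted arrays (-0.28 ± 0.07 SE; limma adjusted p = 0.049). Both calls are marginal: that of rnf13.L ended without control 2 or 3 or any depleted array (adjusted p = 0.14, 0.073, 0.065, 0.13 and 0.11), and that of rnf19b.L without any control array or depleted 2 or 3 (0.072, 0.16, 0.089, 0.16 and 0.19). The nearest to passing beyond these were rnf181.S (-0.33 ± 0.09; adjusted p = 0.057), rnf10.S (-0.17 ± 0.05; 0.094) and rnf139.S (-0.26 ± 0.08; 0.095, limma). Other RNF genes that did not pass were rnf111.L and rnf111.S, whose product promotes TGF-beta and Nodal responses (-0.11 ± 0.09 and -0.08 ± 0.07), rnf2.L of the Polycomb complex (0.12 ± 0.06 and 0.13 ± 0.10) and rnf4.L (0.11 ± 0.08).

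Of 18 tested TRIM probe sets 1 rose and 0 fell (5.56%, against 6.62% of all tested), with 4 at an unadjusted p under 0.05 in limma (22.2%, against 19.0% of all tested). trim7.L, whose mammalian counterpart binds glycogenin, the primer of glycogen synthesis, read 844, 777 and 796 in control and 924, 980 and 1025 in depleted arrays. The groups did not overlap, and the log2 difference was 0.28 ± 0.06 (SE; limma adjusted p = 0.030). The call ended without control 2 or 3 and without depleted 2 or 3 (adjusted p = 0.14, 0.054, 0.098 and 0.14). trim8.L was higher in every depleted array on a pair of probe sets without passing (0.26 ± 0.10 and 0.21 ± 0.09; adjusted p = 0.18 and 0.22 in limma), as was trim25l.L (0.25 ± 0.10). trim33.L, known as a ligase for Smad4, did not pass on any of 3 tested probe sets (-0.13 ± 0.07, -0.13 ± 0.07 and 0.03 ± 0.08). As many as 13 of the 31 TRIM probe sets were too dim to be tested.

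Among the cullins, cul1.S, a copy of the scaffold gene of the SCF ligases, fell. It read 758, 795 and 781 in control and 659, 600 and 602 in depleted arrays. The control arrays lay close together and depleted 1 lay nearest to them, and the log2 difference was -0.33 ± 0.06 (SE; limma adjusted p = 0.013). It no longer passed without control 2, depleted 2 or depleted 3 (adjusted p = 0.078, 0.058 and 0.072). The other copy, cul1.L, read 556, 608 and 524 against 635, 586 and 572 with overlap (0.09 ± 0.08). cul2.L (0.08 ± 0.08) and cul5.L (-0.04 ± 0.09) did not pass. Of 6 tested cullin probe sets 1 was called (16.7%, against 6.62% of all tested), with 0 higher and 1 at an unadjusted p under 0.05 in limma.

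Of 48 tested F-box probe sets 2 rose and 0 fell in limma (4.17%, against 6.62% of all tested), with 7 at an unadjusted p under 0.05 (14.6%, against 19.0% of all tested). fbxl15.L encodes an F-box protein that in mammals and zebrafish targets Smurf1, a ligase that limits BMP signalling. It read 93.3, 85.1 and 70.6 in control and 119, 116 and 133 in depleted arrays. Control 3 was the lowest and depleted 3 the highest array, and the log2 difference was 0.57 ± 0.11 (SE; limma adjusted p = 0.016). fbxo27.S, of the F-box proteins that bind glycoproteins, read 82.3, 81.7 and 79.9 in control and 108, 111 and 98.7 in depleted arrays, a log2 difference of 0.38 ± 0.08 (limma adjusted p = 0.025). The call of fbxl15.L ended without control 2 and without depleted 3 (adjusted p = 0.060 and 0.082), and that of fbxo27.S without control 2 and without depleted 1 or 2 (0.11, 0.074 and 0.093). With 64 added to each signal both passed with smaller log2 differences, 0.35 for fbxl15.L and 0.23 for fbxo27.S. In 12 of the 48 F-box probe sets the depleted arrays all lay above the control arrays and in 1 all below, against 11.9% and 12.8% of all tested probe sets, and the class median was 0.04. Those nearest to passing were fbxo34.S (0.17 ± 0.05), fbxo30.L (0.38 ± 0.12) and fbxo42.L (0.26 ± 0.09), with adjusted p = 0.097, 0.11 and 0.13 in limma. The genes of the anaphase promoting complex inhibitors Emi1 and Emi2, fbxo5 and fbxo43, did not pass on either copy (-0.02 ± 0.13 and 0.13 ± 0.10 for fbxo5.L and fbxo5.S, 0.01 ± 0.14 and -0.33 ± 0.15 for fbxo43.L and fbxo43.S). fbxw7.L, whose product targets cyclin E, had -0.05 ± 0.09.

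**Figure D3:**
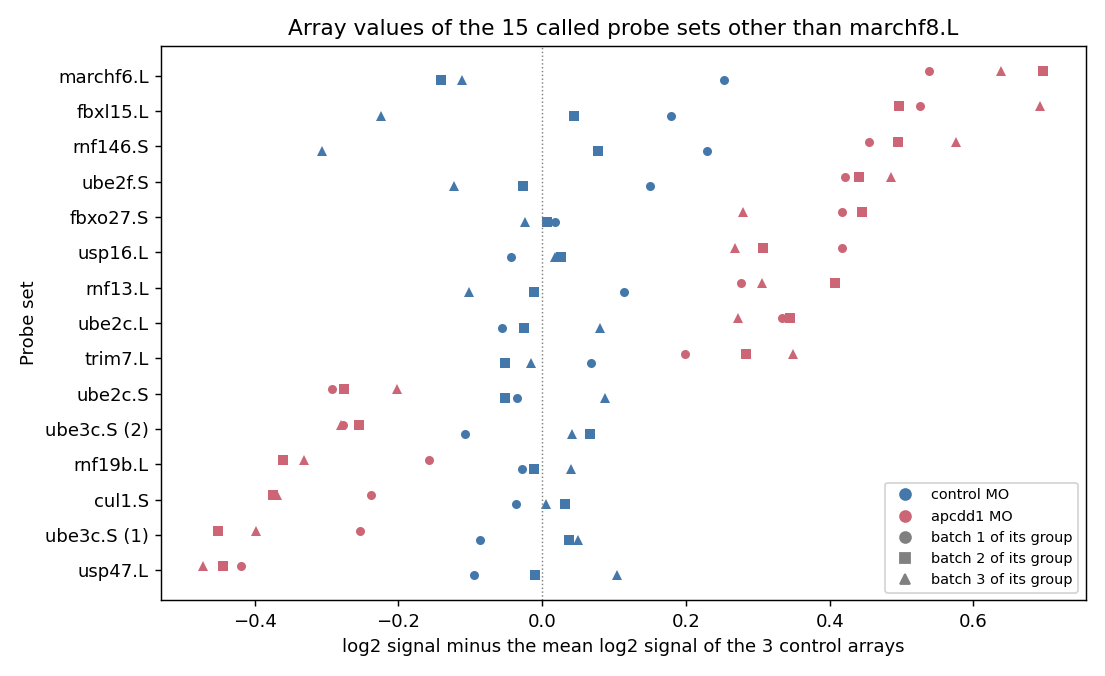
Log2 signal relative to the mean of the 3 control arrays (horizontal axis) of the 15 called probe sets other than those of marchf8.L (vertical axis), where each point is an array, blue for control MO and red for apcdd1 MO, marked by batch number. The groups do not overlap in any of them, and the log2 differences run from -0.44 in usp47.L to 0.62 in marchf6.L.

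The ubiquitin proteases held 1 call in each direction. usp47.L, whose mammalian counterpart is known to protect DNA polymerase beta of base excision repair, read 517, 549 and 594 in control and 413, 406 and 398 in depleted arrays. The depleted arrays lay within a narrow range, well below all controls, and the log2 difference was -0.44 ± 0.07 (SE; limma adjusted p = 0.0047), the lowest among the members and called without any single array (adjusted p from 0.0042 to 0.031). usp16.L encodes a protease that takes ubiquitin off histone H2A. It read 484, 507 and 504 in control and 666, 616 and 600 in depleted arrays, a log2 difference of 0.33 ± 0.06 (limma adjusted p = 0.015). Its call ended without control 2 alone (adjusted p = 0.061). The 2 calls were 6.67% of the 30 tested USP probe sets, against 6.62% of all tested. The other 28 did not pass, and the class median was -0.03. usp12b.S (-0.24 ± 0.10), usp1.S, a gene of DNA damage tolerance (-0.20 ± 0.09), and usp7.S (-0.02 ± 0.07) were among them. So was usp6nl.L (0.27 ± 0.10), which matches the family by its letters although its product is a GTPase-activating protein. None of the 5 tested OTU protease probe sets passed in limma or had an unadjusted p under 0.05, with otud5.L at 0.18 ± 0.10, otud5.S at 0.16 ± 0.09 and otud6b.L at -0.11 ± 0.08.

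Signs were compared for members measured on more than 1 probe set or on both gene copies. Of 48 symbols with several tested probe sets, 26 had all of them on one side of 0. Among the 6 of the 48 with a call, both marchf8.L and ube3c.S were called on every tested probe set, and marchf6.L, rnf13.L, ube2c.L and ube2f.S only on one. The probe sets of marchf6.L and of rnf13.L lay on both sides of 0. The second call of ube3c.S was marginal, kept in 2 of 9 other fits and in 1 of 6 with an array left out. Of 30 genes with a tested probe set on both copies, compared on the brightest, 14 had both copies on the same side of 0, and 28 had no call on either. Many of these differences were smaller than their SE, such as ube2s.L (0.00 ± 0.07) and rnf41.S (0.00 ± 0.08), so their sign carries little weight. The share of same signs over all genes of the array was not computed. The exceptions were ube2c, called in opposite directions, and cul1, called on the .S copy. marchf8 was measured on its .L copy alone.

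**Figure D4:**
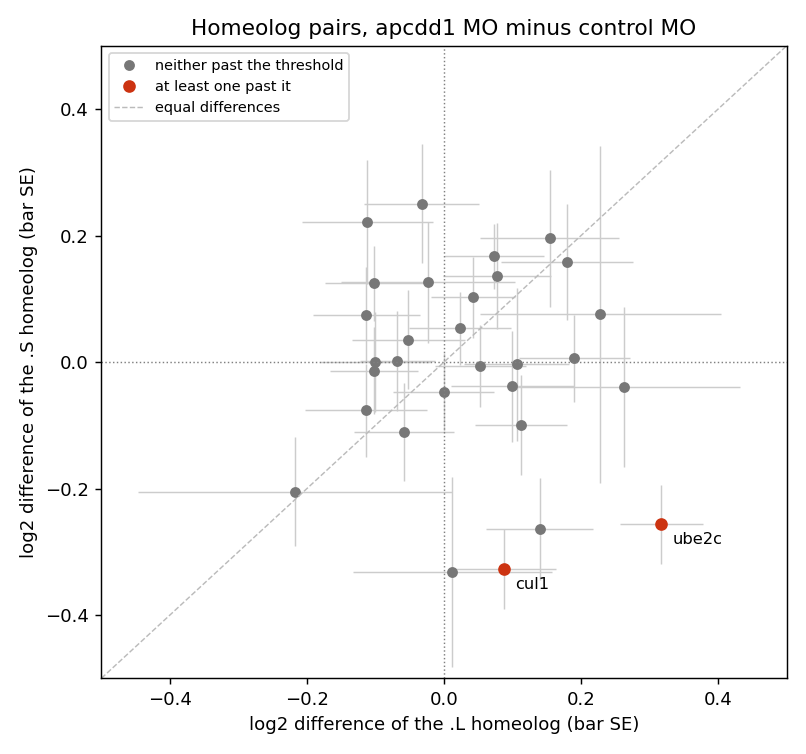
Log2 difference, apcdd1 MO minus control MO, of the .S copy (vertical axis) against the .L copy (horizontal axis) for 30 gene pairs on their brightest probe set, where bars are SE and the dashed line marks equal differences. Pairs with a call are red: ube2c at 0.32 and -0.26, and cul1 at 0.09 and -0.33.

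Other genes of the pathway, from lists drawn up with earlier results known, gave these counts. Ubiquitin precursor and E1 genes did not move in the test, with 0 of 15 probe sets called in limma and 0 at an unadjusted p under 0.05, and log2 differences from -0.11 to 0.14. Those nearest to passing were uba2.L (-0.11 ± 0.06), nae1.S (0.14 ± 0.08) and uba1.S (-0.11 ± 0.08).

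Partners of cullins had 3 of 69 probe sets higher and 2 lower (7.25%, against 6.62% of all tested). skp2.L, an F-box gene whose product targets inhibitors of the cell cycle, read 720, 752 and 781 in control and 506, 556 and 562 in depleted arrays (-0.47 ± 0.07 SE; limma adjusted p = 0.0028). ddb1.S, the adaptor gene of cullin 4, read 329, 352 and 355 against 219, 251 and 235 (-0.56 ± 0.08; adjusted p = 0.0023). Both were lower without overlap in every depleted array and passed without any single array. dtl, whose product binds PCNA-bound targets for cullin 4, was higher on both copies, dtl.S at 422, 427 and 397 against 563, 509 and 583 (0.41 ± 0.07; adjusted p = 0.0087) and dtl.L with 0.38 ± 0.10 (adjusted p = 0.047, limma). The call of dtl.S ended without depleted 3 (adjusted p = 0.054) and that of dtl.L without any one array (from 0.052 to 0.14).

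The anaphase promoting complex had 1 of 18 probe sets higher and 0 lower (5.56%, against 6.62% of all tested). At an unadjusted p under 0.05 in limma stood 3 (16.7%, against 19.0% of all tested). anapc15.S read 379, 407 and 439 in control and 663, 756 and 678 in depleted arrays (0.78 ± 0.08; limma adjusted p = 3.9e-04). Its other probe set gave -0.01 ± 0.06 and the .L copy 0.16 ± 0.09, neither passing.

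Ligases outside the member families had 2 of 66 probe sets higher and 5 lower (10.6%, against 6.62% of all tested). By direction this was 3.03% higher and 7.58% lower, against 3.00% and 3.61% of all tested. traf4.L, a RING adaptor gene of receptor signalling, read 30.0, 42.5 and 33.1 in control and 103, 97.5 and 104 in depleted arrays (1.54 ± 0.13; limma adjusted p = 1.2e-04). The groups were far apart, and traf4.S had 0.35 ± 0.11 (adjusted p = 0.090). traf6.L, of the same family, went down from 48.4, 58.0 and 60.6 to 32.8, 29.8 and 29.0 (-0.86 ± 0.11; adjusted p = 0.0018, limma). stub1.L, the gene of a ligase that works with chaperones, fell by 0.44 on the log2 scale (adjusted p = 0.018 in limma, and 0.072 without control 2).

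Other deubiquitinating and SUMO proteases had 5 of 48 probe sets higher and 0 lower (10.4%, against 6.62% of all tested). At an unadjusted p under 0.05 in limma stood 16 (33.3%, against 19.0% of all tested). psmd14.S, the deubiquitinase of the proteasome lid, read 112, 112 and 118 in control and 209, 245 and 239 in depleted arrays (1.02 ± 0.08; limma adjusted p = 1.2e-04). stambp.S, an endosomal deubiquitinase gene, read 82.4, 79.1 and 92.0 against 179, 165 and 157 (0.98 ± 0.09; adjusted p = 2.3e-04). Its other probe set had 0.51 ± 0.17 (adjusted p = 0.12), and stambp.L had 0.11 ± 0.06. uchl1.S, a neuronal ubiquitin hydrolase gene, read 1301, 1312 and 1485 against 1749, 1748 and 1580 (0.31 ± 0.07; adjusted p = 0.028 in limma, and 0.070, 0.13, 0.10 and 0.11 without control 1, control 2, depleted 1 and depleted 2). Ubiquitin shuttle and segregase genes had 1 of 48 higher, ubxn2b.L (50.2 ± 5.12 to 77.4 ± 5.92 SD, n = 3; limma adjusted p = 0.0070), and 0 lower. This was 2.08%, against 6.62% of all tested. At an unadjusted p under 0.05 in limma stood 4 of them (8.33%, against 19.0% of all tested).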

How the data were processed

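RNA of 6 Affymetrix arrays was measured, 3 per group. The authors' deposited values are signal intensities on a linear scale, and the submitters' processing notes name MAS5 without a version. Beyond that name, the exact probe summary and scaling behind these values are not settled by the sources used here. The values may already have been normalized across arrays. From the deposited values, 160 control probe sets were set apart, signals were raised to at least 1 (0 values moved) and log2-transformed, and 12990 dim probe sets were left out. The remaining 19484 were fitted by lmFit and moderated by eBayes, its trend and robust options on (R 4.3.3, limma 3.58.1), and two-sided p-values were adjusted by Benjamini-Hochberg, with 0.05 as threshold. A probe set with several symbols was not named, which set 5 possible members aside. Members, lists and classes were chosen with earlier results of these data known, so no list was tested. Of 248 other pathway genes, 174 were matched by symbol.

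The genes named are marchf8, every member past the threshold, the 3 lowest p per class that did not pass, their other probe sets and copies (printed for genes with a call, and in part for the rest), and up to 3 per other list; members named beyond this (trim33, rnf111, rnf2, rnf4, fbxo5, fbxo43, fbxw7, usp7, ube2s and the remaining marchf genes) were chosen after their values were seen. The fit was tested on data simulated for this contrast (19484 probe sets, 200 of them changed), where 65% of 1.5-fold and 87% of 2-fold changes were recovered and 4.40% of calls were false. Its noise was drawn independently for each probe set and array, without shifts shared by the arrays of a group. Fewer probe sets changed there than the 1289 called in the data, so these shares need not hold for the data. Alternatives were other scalings, added constants, filters, variance models, the replicate number as a block and each array left out. The number of arrays limits the precision, and a permutation of 3 against 3 cannot give a p under 0.1.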

Additional observations from a re-analysis of the deposited data

How the results depend on the processing

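Both marchf8.L probe sets passed under all 9 other fits and without any of the 6 arrays. Median log2 differences of all tested probe sets stayed within 0.01 of 0 under quantile normalization and median centring. Members called fell from 17 to 9 (7 higher, 2 lower; 3.59%, against 5.65% of all tested) with the replicate number as a block, with 0 HECT-type, 0 RNF, 0 TRIM, 1 F-box and 4 other ligase probe sets. The numbers were not taken as pairs, since the deviations of same-numbered arrays correlated at 0.05, 0.02 and -0.27. With eBayes without its trend and robust options 12 members passed, 11 of them among the 17, with 9 higher and 3 lower. There 0 RNF, 0 TRIM and 4 other ligase probe sets passed, and rnf146.S, rnf13.L, rnf19b.L, trim7.L, ube2c.S and the second probe set of ube3c.S were lost, while ube3d.S passed (adjusted p = 0.034, limma). Without the filter 3 members were lower, with 1 HECT-type and 1 RNF call. HECT-type calls were 1 with quantile normalization and with 16 or 64 added. Under the filter at the 60th percentile, other ligases had 4 calls and shuttle genes 0. With each probe set's own variance alone, 196 probe sets passed in all, 3 of them members (3 higher, 0 lower). Of the 17 calls, those of marchf8.L alone were kept. The 1 HECT-type call there was ube3d.S, which is higher and not among the 17, and there were 0 calls for E2, RNF, TRIM, cullin, F-box and USP genes. Among the other lists passed 3 deubiquitinases and 0 for cullin partners, other ligases, anaphase promoting complex and shuttle genes.

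Of 886 values of the 60 named member probe sets other than marchf8.L, under these alternatives and without 1 array, 776 kept direction and side of the threshold. In 87 a call was lost, in 5 one was gained and in 18 the sign changed. All 87 losses fell on the 15 of these probe sets that were called, and the rest had no call to lose. The 776 is therefore no measure of how stable the calls are. Leaving out 1 array gave 669 to 1430 calls in all, 3 to 16 members, 2 to 11 higher and 1 to 5 lower. By class the range was 0 to 2 for E2 and HECT-type, 0 to 3 for RNF and F-box, 2 to 3 for RING-CH, 0 to 1 for TRIM and cullin and 1 to 2 for USP genes. It was 2 to 7 for cullin partners, 2 to 6 for other ligases and 2 to 5 for other deubiquitinases. Of 30 gene pairs, 13 to 19 had both copies on one side of 0. Log2 differences that changed sign without an array, none of them called, were cul5.L (-0.101 to 0.00789), usp1.L (-0.48 to 0.0289), trim8.L on its other probe sets (-0.0558 to 0.18 and -0.0208 to 0.0792), marchf7.L (-0.0186 to 0.0800), marchf6.L on its dimmest probe set (-0.13 to 0.10), rnf13.L (-0.0917 to 0.0647) and ube2s.L (-0.0452 to 0.0518, and 0.00741 with quantile normalization). The cause of these changes was not tested.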

Other observations

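Of the 52 member probe sets left out as dim, 0 were called in the limma fit without the filter, and 3 had an unadjusted p under 0.05: fbxl8.L (8.42 ± 0.74 to 7.09 ± 0.35), fbxo8.L (16.2 ± 0.15 to 19.2 ± 1.22) and trim29.L (10.8 ± 0.77 to 12.9 ± 0.96; signal, SD, n = 3).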
